A study of Mus musculus with 31 samples.

Results

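The AP-1 and Egr immediate early factors are the transcription factor genes Fos, Fosb, Fosl1, Fosl2, Jun, Junb, Jund, Egr1 and Egr2, together with Ier2, an immediate early response gene. The 10 genes were chosen by symbol from the 41255 symbols listed, and all 10 had a row in both the total mRNA and the polysomal RNA table. The libraries were made from Ba/F3, an interleukin 3 dependent lymphoid line of the mouse. RPL10 belongs to the large subunit of the ribosome, and its R98S form occurs in T-cell acute lymphoblastic leukemia. The question asked of these genes was whether R98S and WT cells differed in the same direction in both fractions, and how far the libraries and the replicate numbers of a group lay apart.

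Immediate early genes are switched on within minutes of growth factor or stress signals without new protein synthesis, through kinases of the MAP kinase chain and the serum response factor. Their mRNAs are short-lived, and many carry AU-rich elements that direct rapid decay. Fos family proteins (Fos, Fosb, Fosl1, Fosl2) pair with Jun family proteins (Jun, Junb, Jund) to form the dimeric factor AP-1, which binds TGANTCA sites. Egr proteins are zinc finger factors that bind GC-rich sites. In hematopoietic cells these factors are known as a readout of cytokine signalling.

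All clones were monoclonal Ba/F3 lines in which endogenous Rpl10 was knocked down by shRNA, and all expressed human RPL10 from a retrovirus. The R98S group carried the R98S form (clones 11, 13 and 35) and the WT group carried wild-type RPL10 (clones 28, 29 and 36). Total mRNA was sequenced in 9 R98S and 8 WT libraries, and polysomal RNA, which comprises transcripts that carried 2 or more ribosomes on a sucrose gradient, in 8 R98S and 6 WT libraries. Each of the 14 polysomal libraries had a total mRNA library of the same clone and replicate number, and such a pair is called a culture here. Replicate numbers run from 1 to 3 and are unevenly filled, so that number 1 held a single WT polysomal library and clone 36 held a single polysomal library. A further WT total mRNA library, of clone 36 and number 1, was left out by the study because it grouped with R98S, and it was not analysed here. Libraries of a clone are repeat cultures of 1 line. The main tests took each library as a sample, with no term for the clone. They thus pool the spread between repeat cultures with that between clones, and do not measure the spread over 3 clones against 3 alone.

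Total mRNA libraries held 11471068 to 22059792 reads (R98S) or 9338671 to 17827021 (WT). Polysomal libraries held 8831180 to 20754046 (R98S) or 13436103 to 20353757 (WT). The interleukin 3 receptor chain Csf2rb was abundant in all libraries (lowest normalized count 28599 in total and 12079 in polysomal RNA), and the B lineage genes Cd79a and Cd79b were present, while Pax5, Ebf1, Igll1 and the receptor Kit were at or near 0. Mast cell markers moved with the genotype. The summed normalized count of Cpa3, Tpsb2 and Mcpt8 was 192.3 to 3465 in R98S and 18.7 to 307.8 in WT total mRNA, and 214.5 to 2161 and 41.0 to 338.8 in polysomal RNA, with Tpsb2 near 0. Among markers of other cells, the hemoglobin gene Hba-a1 moved the other way, with 1.38 to 138.8 normalized counts (median 13.03) in R98S against 63.9 to 417.7 (median 110.8) in WT total mRNA and 6.08 to 19.1 against 15.9 to 862.9 in polysomal RNA. The summed T cell markers overlapped between genotypes and had a higher median in R98S polysomal RNA (70.7 against 26.0). Within this sum Cd3d and Cd3g went opposite ways. Cd3d had 30.5 to 97.4 counts in R98S against 5.15 to 23.0 in WT total mRNA, and 33.4 to 285.4 against 3.85 to 17.6 in polysomal RNA. Cd3g had lower medians in R98S (4.46 against 36.6 in total mRNA and 1.37 against 10.6 in polysomal RNA), with overlapping ranges. The summed count of the Ba/F3 markers, mostly Csf2rb and Csf2rb2, was also higher in R98S total mRNA (110175 to 222357 against 56843 to 102239 in WT). The part of any of these in the results was not tested, and in bulk samples fewer cells of a kind and less RNA per cell cannot be told apart.

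Sequences upstream of the start sites are shown for Fos, Egr2 and Junb, whose total mRNA profiles lay near each other, and for Jun, the member with the firmest genotype difference. Windows run from 250 bases before to 50 bases after a start site, as RefSeq gives them on GRCm38.p6 (mm10), and 7 of the 10 members had an entry. The windows were searched on both strands for TGANTCA (AP-1), TGACGTCA (the cyclic AMP response element, CRE), its shorter core TGACG, GCGNGGGCG (Egr) and the CArG box of the serum response factor, and on the given strand for TATAAA. Every TGACGTCA also holds TGACG. Capitals mark the matches.
Fos, chr12:85473640-85473939, plus strand: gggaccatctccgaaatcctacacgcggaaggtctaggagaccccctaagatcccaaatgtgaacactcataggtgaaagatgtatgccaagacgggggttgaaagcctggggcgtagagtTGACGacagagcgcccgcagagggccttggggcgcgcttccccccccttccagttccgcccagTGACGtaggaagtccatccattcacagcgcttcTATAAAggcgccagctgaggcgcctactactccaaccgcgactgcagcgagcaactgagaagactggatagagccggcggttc
Egr2, chr10:67537619-67537918, plus strand: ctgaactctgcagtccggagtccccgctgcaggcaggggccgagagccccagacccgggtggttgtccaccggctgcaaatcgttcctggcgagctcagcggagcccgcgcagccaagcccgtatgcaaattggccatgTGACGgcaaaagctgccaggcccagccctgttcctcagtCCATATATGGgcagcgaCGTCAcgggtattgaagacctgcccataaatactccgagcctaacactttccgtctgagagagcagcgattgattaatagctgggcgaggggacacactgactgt
Junb, chr8:84978699-84978998, minus strand: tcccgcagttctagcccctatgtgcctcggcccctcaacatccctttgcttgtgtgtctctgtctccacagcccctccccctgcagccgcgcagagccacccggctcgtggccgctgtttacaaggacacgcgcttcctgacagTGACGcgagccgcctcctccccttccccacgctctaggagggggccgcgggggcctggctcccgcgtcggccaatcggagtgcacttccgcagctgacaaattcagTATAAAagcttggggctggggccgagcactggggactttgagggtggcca
Jun, chr4:95052173-95052472, minus strand: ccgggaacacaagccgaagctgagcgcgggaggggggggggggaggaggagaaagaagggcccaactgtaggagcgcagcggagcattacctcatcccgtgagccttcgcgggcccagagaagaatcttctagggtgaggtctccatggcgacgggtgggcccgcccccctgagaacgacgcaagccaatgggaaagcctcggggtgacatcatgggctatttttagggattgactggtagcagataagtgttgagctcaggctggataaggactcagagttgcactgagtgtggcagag

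The Fos window held TGACG at -129 and -66 and TATAAA at -33, counted from the start site. The Egr2 window shown, 1 of 5 that RefSeq gives, held a CArG box at -72, flanked by TGACG at -111 and TGACG of the other strand at -55. Of the other Egr2 windows, that starting at 67535249 held none of the motifs, that starting at 67537316 held a different CArG box and no TGACG, and the remaining ones overlap the window shown. Junb held TGACG at -106 and TATAAA at the RefSeq start site itself. The GENCODE start of Junb, at 84978718, lies downstream of that site and within the window. In the Jun window none of the searched motifs was found in these letters. The same held for the Jund window (chr8:70697489-70697788), which ends upstream of the Jund start in GENCODE, so it says nothing of that start. The Fosb and Fosl2 windows each held 1 Egr motif, at -50 and -79, beside TGACG at -60 in Fosb. Of 32544 promoter windows of this length, 20.91% held TGACG, 8.281% TATAAA, 7.789% the AP-1 motif, 5.602% the Egr motif, 1.801% the full CRE and 1.641% a CArG box. A match is a description of the letters and no measure of binding.

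In the GENCODE M21 annotation of mm10 the genes lie at chromosome 12, 85473890 to 85477273 (Fos, plus strand), chromosome 7, 19302696 to 19310051 (Fosb, minus), chromosome 19, 5447547 to 5455946 (Fosl1, plus), chromosome 5, 32135801 to 32157842 (Fosl2, plus), chromosome 4, 95049034 to 95052222 (Jun, minus), chromosome 10, 67535475 to 67542188 (Egr2, plus), and, for Junb (84974484 to 84978718, minus), Jund (70698949 to 70700616, plus) and Ier2 (84661331 to 84662852, minus), chromosome 8. No member shared a 50-base window with the transcripts of another gene. The Fosl1 exons overlap Ccdc85b on the opposite strand over 57.2% of their bases, and Ccdc85b had a mean of 322.2 normalized counts. Whether reads were counted by strand is not given in the sources used here, so the Fosl1 level may hold reads of Ccdc85b. Junb overlaps Prdx2 in the same way over 7.52% of its exon bases, with a mean of 2313 normalized counts for Prdx2.

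Ier2, Junb and Jund were the abundant members, and Egr1 was barely detected. Per kilobase of exon, the mean normalized count in polysomal RNA was 2156 for Ier2, 773.7 for Junb, 558.2 for Jund, 130.5 for Fos, 107.6 for Fosl1, 69.5 for Egr2, 47.8 for Jun, 44.8 for Fosl2 and 3.10 for Fosb. In total mRNA the same quantity was 1370 for Ier2, 599.8 for Jund, 560.3 for Junb and 95.3 for Fos. The order of Junb and Jund thus differed between the fractions, and the libraries of both genes overlapped in each. Egr1, a zinc finger factor that is a standard immediate early marker, had 1.38 to 16.97 normalized counts in total mRNA and 0 to 11.1 in polysomal RNA. Its mean was below the minimum of 10 in both tables, so Egr1 was not tested and 9 members were.

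**Figure D1:**
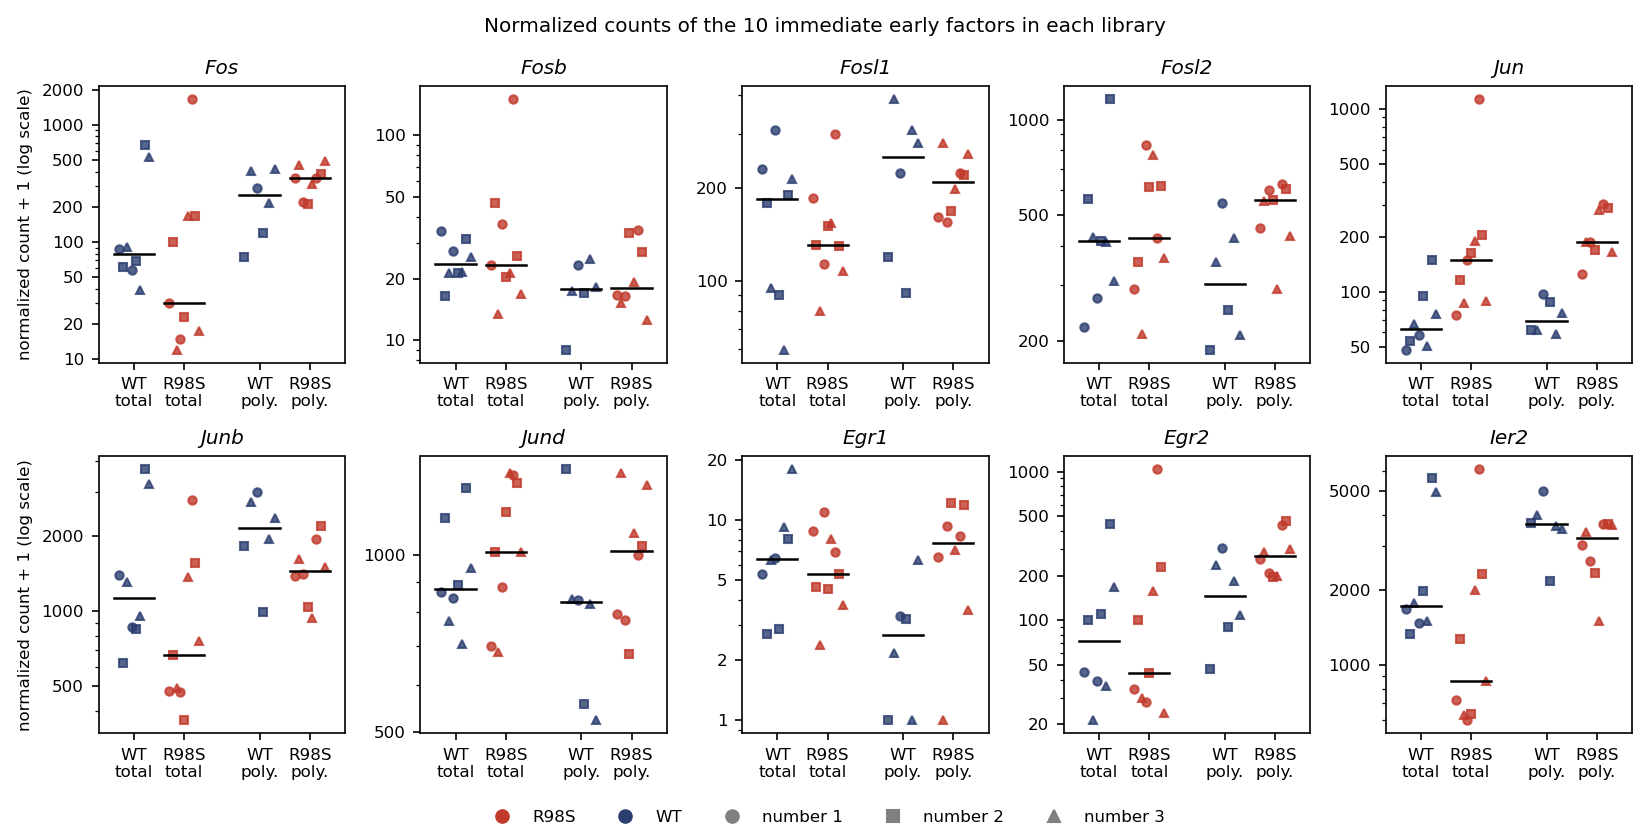
Normalized count plus 1 (log scale) of each member in every library, by fraction and genotype, with circles, squares and triangles for replicate numbers 1, 2 and 3 and a black line at the group median. In total mRNA 1 R98S library stands far above the rest for Fos, Jun, Egr2 and Ier2, and 2 WT libraries do for Fos and Ier2, while in polysomal RNA all 8 R98S libraries lie above all 6 WT libraries for Jun alone.

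Fos, Egr2, Jun, Ier2 and Junb varied more between total mRNA libraries than between polysomal libraries, whereas most genes did the opposite, and much of this spread lay in the cultures of R98S clone 35 number 1 and WT clone 36 number 3. Fos, the founding AP-1 subunit, had a lowest, median and highest normalized count of 11.0, 29.0 and 1682 in R98S total mRNA (n = 9) and of 38.1, 77.5 and 670.5 in WT (n = 8). In polysomal RNA the values were 212.4, 353.1 and 493.7 in R98S (n = 8) and 73.9, 252.8 and 424.4 in WT (n = 6). The ratio of highest to lowest library was 152.5 in total mRNA and 6.68 in polysomal RNA. The genotypes overlapped in both fractions, with 5 R98S total mRNA libraries below and 1 above all WT libraries.

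Egr2, a zinc finger factor of the Egr family, ranged from 22.8 (median 43.3) to 1039 normalized counts in R98S total mRNA and from 20.2 (median 71.5) to 441.7 in WT, a 51.3-fold range. Its polysomal range was 10.1-fold. Ier2, whose product acts in transcriptional regulation, spanned 594.3 to 6134 in R98S and 1325 to 5639 in WT total mRNA, which is 10.3-fold, against 3.35-fold in polysomal RNA. For Junb, a Jun protein known to restrain Jun activity, the ranges were 10.2-fold and 3.21-fold. Jun ranged 24.2-fold against 5.21-fold, and Fosb 12.1-fold against 4.21-fold. Fosl1 (5.24 and 4.32), Fosl2 (5.56 and 3.34) and Jund (2.01 and 2.68) differed less between fractions, and Jund was the exception with the wider range in polysomal RNA. These total mRNA ranges are over 17 libraries and the polysomal ranges over 14. Over the 14 cultures with both libraries the total mRNA range was 8.91-fold for Junb, 23.1-fold for Jun and 3.98-fold for Fosl2, and unchanged for the other tested members.

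Over the 14 cultures with both libraries, the SD within genotypes of log2(normalized count + 1) was 2.08 for Fos in total mRNA against 0.73 in polysomal RNA, 1.66 and 0.74 for Egr2, 1.04 and 0.43 for Ier2, 0.98 and 0.40 for Jun, and 0.96 and 0.49 for Junb. The medians over all 10627 genes were 0.29 and 0.50. The SD was larger in total mRNA for 8 of the 9 members and for 22.2% of all genes. The quotient of the SDs was larger for Fos than for 99.7% of genes, and larger for Jun, Ier2 and Egr2 than for 99.3%, 99.3% and 99.0%. No test was made of this difference in spread.

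**Figure D2:**
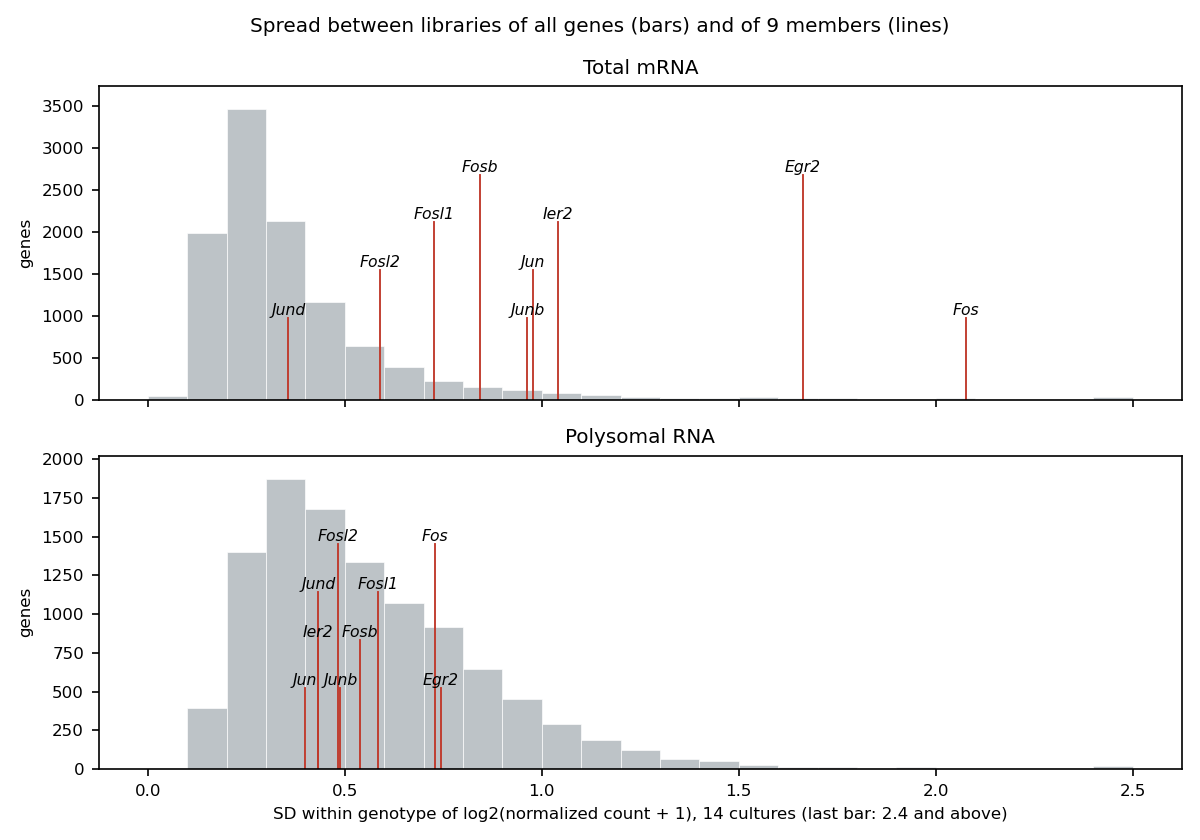
Number of genes by SD within genotypes of log2(normalized count + 1) over 14 cultures, for total mRNA and polysomal RNA, with the 9 tested members as red lines. In total mRNA Fos and Egr2 lie at 2.08 and 1.66, far from the median gene at 0.29, while in polysomal RNA all members lie within the bulk of genes.

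A few cultures held the highest levels. In total mRNA, R98S clone 35 number 1 had the highest count of 5 of the 9 members (Fos 1682, Fosb 150.2, Jun 1139, Egr2 1039 and Ier2 6134), where it held the highest count of 6.44% of all genes. The WT library of clone 36 number 2 was highest for Junb (3716) and Fosl2 (1164), and for 13.0% of all genes. WT clone 36 number 3 followed for Fos (534.7), Ier2 (4969) and Junb (3247). The matched polysomal library of R98S clone 35 number 1 had 355.4 Fos and 3677 Ier2 counts, close to the R98S medians of 353.1 and 3232. It was nonetheless the highest polysomal library for 3 of the 9 members, Jun (299.9), Fosb (33.6) and Fosl2 (623.1), against 4.92% of all genes, and had 437.4 Egr2 counts where the R98S median was 271.1. That of WT clone 36 number 3 had 424.4 Fos and 3502 Ier2 counts. The total mRNA libraries that stood apart had 13466721, 16149408 and 16337381 reads, within the range of the others.

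Without R98S clone 35 number 1 and WT clone 36 number 3 the contrast between fractions was smaller. Over the remaining 12 cultures Fos ranged 15.2-fold in total mRNA against 6.68-fold in polysomal RNA, Egr2 11.3-fold against 10.1-fold and Ier2 3.904-fold against 3.35-fold. Jun (4.13-fold against 4.97-fold) then had the wider range in polysomal RNA. The SD remained larger in total mRNA for 7 of the 9 members, against 22.2% of all genes, with Fosb and Jund as the exceptions. The summed normalized count of 12 heat shock genes, which can move with handling, ranked 6, 16 and 3 of 17 in the libraries of R98S clone 35 number 1 and WT clone 36 numbers 2 and 3. The part of handling in these levels was not tested.

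**Figure D3:**
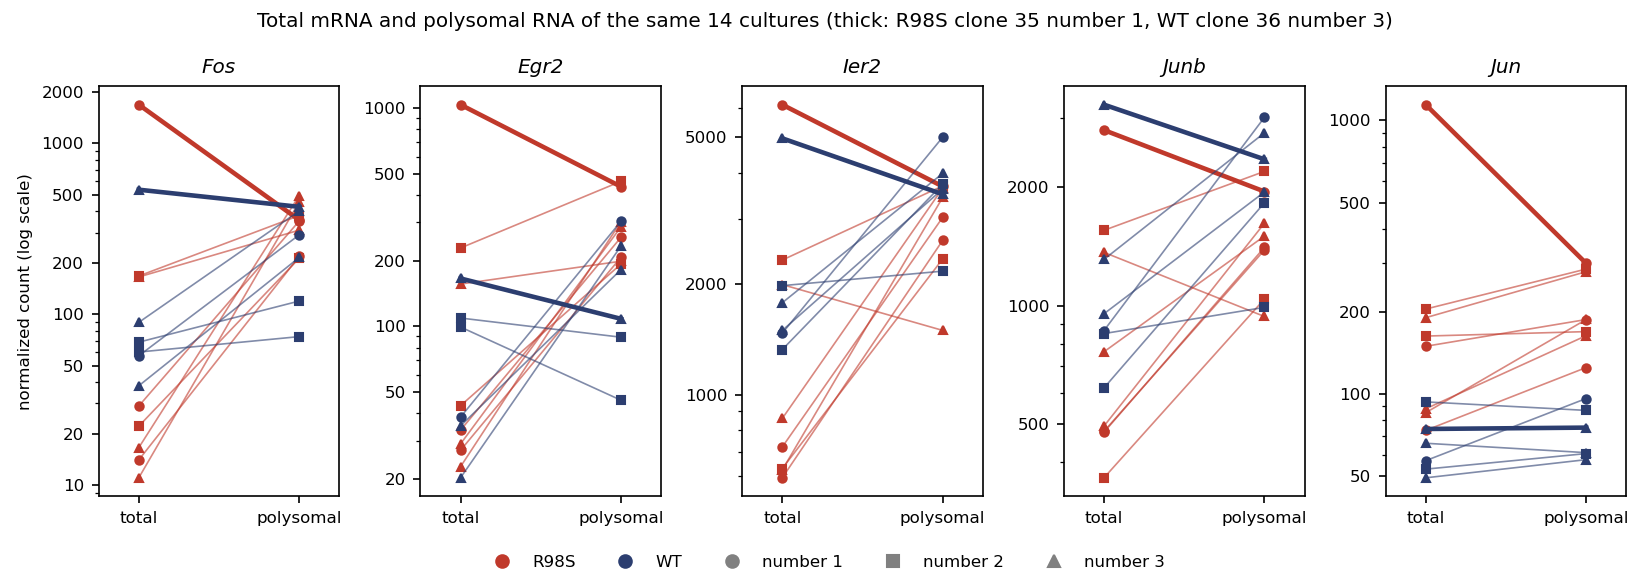
Normalized counts (log scale) of Fos, Egr2, Ier2, Junb and Jun in the total mRNA and the polysomal RNA of the same 14 cultures, 1 line per culture. The cultures of R98S clone 35 number 1 and WT clone 36 number 3 (thick lines) start highest for Fos and Ier2 and fall towards the polysomal value, while over the other 12 cultures Fos ranges 15.2-fold in total mRNA and 6.68-fold in polysomal RNA, and Jun 4.13-fold and 4.97-fold.

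Relative to other genes, Fos and Egr2 had unusually high polysomal against total mRNA values. The log2 ratio of polysomal to total mRNA, termed translational efficiency (TE), averaged 2.02 for Fos over the 14 cultures, above 99.98% of genes, and ran from -2.24 to 5.24. It averaged 1.55 for Egr2, 1.11 for Ier2 and 0.85 for Junb, above 99.9%, 99.0% and 96.2% of genes. TE of Fos was above 0 in 12 of 14 cultures, of Ier2 and Junb in 11 and of Egr2 in 10. The lowest TE values of Fos and Egr2 were those of R98S clone 35 number 1, at -2.24 and -1.25. The tables were normalized separately, so a TE level is relative and was given no test.

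Jun was the member that differed between genotypes in both fractions. Jun encodes the activating Jun subunit of AP-1. In total mRNA its lowest, median and highest normalized counts were 73.6, 149.3 and 1139 in R98S (n = 9) and 47.1, 61.6 and 147.6 in WT (n = 8). The groups overlapped, with 5 of 9 R98S libraries above all WT libraries. The R98S level was 2.32-fold higher (log2 difference 1.21, SE 0.41, limma adjusted p 0.0411). In polysomal RNA the values were 124.9, 187.0 and 299.9 in R98S (n = 8) and 57.6, 68.2 and 96.2 in WT (n = 6), and all R98S libraries lay above all WT libraries. The difference was 2.81-fold (log2 1.49, SE 0.22, adjusted p 0.000379).

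Jun levels were then compared by clone. Mean polysomal counts were 156.0, 211.9 and 249.7 in R98S clones 11, 13 and 35 and 60.8, 80.3 and 75.4 in WT clones 28, 29 and 36. In total mRNA they were 91.2, 167.3 and 477.3 against 55.5, 66.7 and 111.0. The mean of R98S clone 35 held libraries at 1139, 204.2 and 88.3, and that of WT clone 36 libraries at 147.6 and 74.5, so the order of single clone means in total mRNA rests on the libraries that stood apart. Without the libraries of R98S clone 35 number 1 and WT clone 36 numbers 2 and 3 the log2 difference was 1.06 in total mRNA (adjusted p 0.00888) and 1.43 in polysomal RNA (adjusted p 0.00226), where WT clone 36 number 2 has no library. Neither of these fits held a library of clone 36. Over all alternatives the adjusted p ran from 0.00593 to 0.282 in total mRNA and from 5.59e-09 to 0.332 in polysomal RNA, where it was lost within replicate numbers 1 and 2 taken alone (log2 differences of 0.98 and 1.58). In total mRNA the call was lost without WT clone 28 (log2 difference 1.03, adjusted p 0.190), WT clone 29 (1.16, 0.124), R98S clone 13 (1.19, 0.109), number 2 (1.47, 0.101) or number 3 (1.39, 0.166), fits with fewer samples and differences of similar size. Within numbers 1, 2 and 3 alone the differences were 2.15, 0.78 and 0.84. It was kept without any single library. Jun had a mean TE of 0.28 ± 0.95 (SD, n = 8) in R98S, against 0.16 ± 0.32 (SD, n = 6) in WT, a difference of 0.12 (SE 0.38, adjusted p 0.975).

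Of the 9 members tested, 1 was called at an adjusted p under 0.1 in total mRNA (Jun, higher), where 30.3% of all genes were called and 14.5% were called higher in R98S. In polysomal RNA 3 were called, all higher (Jun, Egr2 and Fosl2), where 13.5% of all genes were called and 7.66% were called higher. The genotype groups overlapped for every tested member in total mRNA, where 3.53% of genes did not overlap. In polysomal RNA they did not overlap for 1 member, Jun, against 4.96% of genes.

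Egr2 and Fosl2 were called higher in R98S in polysomal RNA and were not called in total mRNA or in TE. Egr2 had 193.2 (lowest), 271.1 (median) and 462.6 (highest) polysomal counts in R98S and 45.9, 145.3 and 303.4 in WT. The log2 difference was 1.05 (SE 0.37, adjusted p 0.0933) in polysomal RNA and 0.05 (SE 0.71, adjusted p 0.968) in total mRNA. Fosl2, a Fos family subunit without the strong activation domain of Fos, had 291.9, 554.4 and 623.1 polysomal counts in R98S and 186.4, 301.8 and 544.3 in WT. Its log2 difference was 0.72 (SE 0.25, adjusted p 0.0916) in polysomal RNA and 0.13 (SE 0.31, adjusted p 0.810) in total mRNA. In polysomal RNA 5 of 8 R98S libraries lay above all WT libraries for Fosl2, and 4 of 6 WT libraries below all R98S libraries for Egr2.

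Both calls were close to the threshold and were lost in most alternatives. Among 39 alternatives 13 kept the call for each gene, and the adjusted p ran from 0.0342 to 0.938 for Egr2 and from 0.0298 to 0.977 for Fosl2. Leaving out single libraries lost the call in 10 of 14 cases for Egr2 and in 11 of 14 for Fosl2. The WT libraries of replicate number 2 had 45.9 and 89.3 Egr2 counts, the lowest of all, and 186.4 and 250.3 Fosl2 counts, where WT clone 36 number 3 lay between them at 207.6. Without number 2 the log2 differences were 0.49 (adjusted p 0.417) and 0.40 (adjusted p 0.487). Without the libraries that stood apart they were 0.89 (adjusted p 0.275) and 0.56 (adjusted p 0.306). TE differed by 0.74 for Egr2 (SE 0.86, adjusted p 0.935) and by 0.45 for Fosl2 (SE 0.41, adjusted p 0.916).

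In the limma fit of all libraries without the replicate number as a block, the Fos differences had opposite signs in the fractions and neither was called. In polysomal RNA Fos was called higher with the block (adjusted p 0.0894) and without replicate number 3 (1.09, adjusted p 0.0912). The log2 difference was -0.91 in total mRNA (SE 0.86, adjusted p 0.481) and 0.64 in polysomal RNA (SE 0.36, adjusted p 0.339). In total mRNA the value depended on the tool, with -1.58 by DESeq2 (adjusted p 0.0866) and 0.28 by edgeR (adjusted p 0.861) on the same reads. Fos had a mean TE of 2.56 ± 2.48 (SD, n = 8) in R98S, against 1.28 ± 1.19 (SD, n = 6) in WT, a difference of 1.28 (SE 0.96, adjusted p 0.903), and 1.64 without the libraries that stood apart (adjusted p 0.9995).

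Junb and Ier2 had lower medians in R98S in both fractions, and neither passed the test over all libraries without the replicate block. With the block Junb was called lower in polysomal RNA (adjusted p 0.0961). Junb medians were 666.7 in R98S and 1132 in WT total mRNA (log2 difference -0.74, SE 0.42, adjusted p 0.212) and 1455 and 2152 in polysomal RNA (-0.48, SE 0.25, adjusted p 0.298). Ier2 medians were 861.3 and 1724 in total mRNA (-0.85, SE 0.44, adjusted p 0.171) and 3232 and 3675 in polysomal RNA (-0.31, SE 0.23, adjusted p 0.506). In total mRNA 6 of 9 R98S libraries lay below all WT libraries for Ier2 and 4 of 9 for Junb. Without the library of R98S clone 35 number 1 both were called lower in R98S, with log2 differences of -1.14 (Ier2, adjusted p 0.0306) and -0.97 (Junb, adjusted p 0.0792). Without all libraries that stood apart neither was called (adjusted p 0.109 and 0.277). In polysomal RNA Junb was called lower without number 2 (-0.79, adjusted p 0.0541) and without the WT library of clone 29 number 2 (-0.68, adjusted p 0.0695). Of 39 alternatives in this fraction 4 called Junb, with a lowest adjusted p of 0.0502.

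The log2 difference of Fosb, a Fos paralog with low counts here, was 0.27 in total mRNA and 0.23 in polysomal RNA (adjusted p 0.639 and 0.761). Fosl1, a Fos family subunit without a strong activation domain, had differences of -0.10 and -0.03 (adjusted p 0.850 and 0.974). Jund, the broadly expressed Jun subunit, had differences of 0.16 and 0.32 (adjusted p 0.497 and 0.489). Of 39 alternatives in polysomal RNA 2 called Jund, and its adjusted p ran from 0.0399 to 0.978. In TE no member was called by limma, where 0.0376% of all genes were called. No member had an unadjusted p under 0.05 in TE, and edgeR called 0 members.

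**Figure D4:**
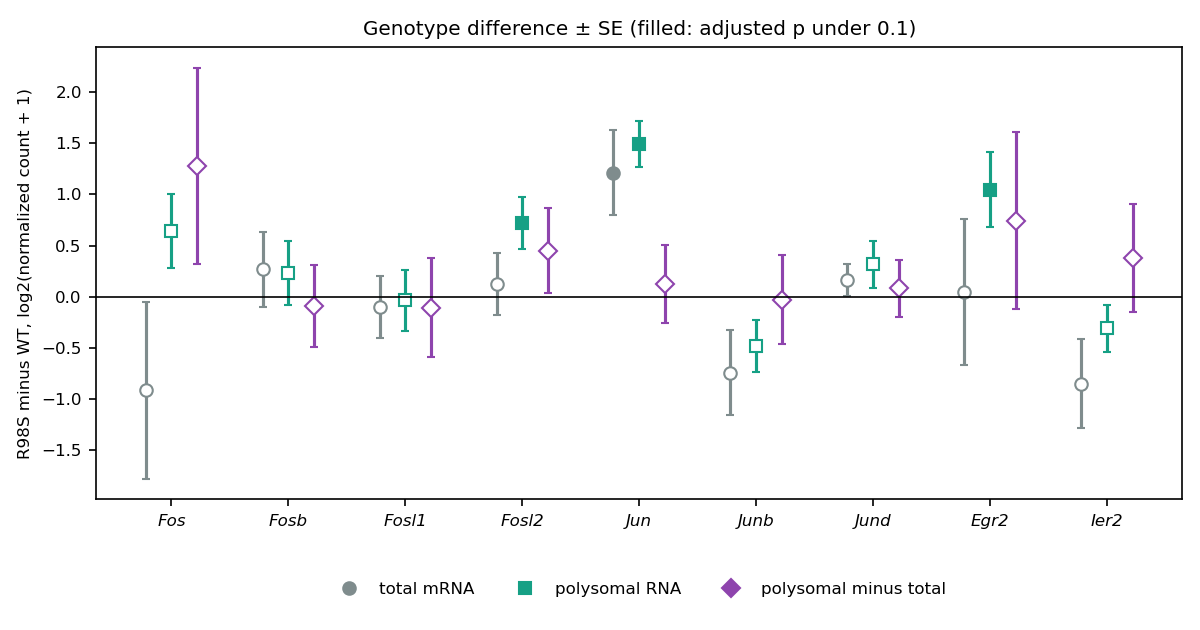
R98S minus WT difference in log2(normalized count + 1), with its SE, for total mRNA (circles), polysomal RNA (squares) and their difference per culture (diamonds), filled where the adjusted p is under 0.1. Jun is higher in both fractions (1.21 and 1.49), Egr2 and Fosl2 in polysomal RNA (1.05 and 0.72), and Fos has opposite signs with wide errors.

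With the replicate number as a block, polysomal RNA gave 5 members called, where 30.9% of all genes were called and 15.2% were called higher. Besides Jun, Egr2 (0.95, adjusted p 0.0491) and Fosl2 (0.62, adjusted p 0.0580), Fos was then called higher (log2 difference 0.64, SE 0.26, adjusted p 0.0894) and Junb lower (-0.55, SE 0.23, adjusted p 0.0961). With a correction for GC content added to the block, Junb was not called (-0.43, adjusted p 0.185) and Jund was called higher (0.51, adjusted p 0.0413).

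Levels by replicate number were compared next, with the genotype as a term. In polysomal RNA 2 of 9 members differed between numbers, Fos (limma F test, adjusted p 0.0106) and Fosl1 (adjusted p 0.00690), where 64.9% of all genes did. In total mRNA 1 of 9 did, Fosl1 (adjusted p 0.0530, and 0.0181 to 0.178 over the alternatives), against 43.5% of genes, and in TE 1 of 9, Fosl1 again (adjusted p 0.00372), against 71% of genes. Whether these shares differ from those of all genes was not tested.

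Fos polysomal counts were 73.9 and 119.3 in the WT and 212.4 and 377.6 in the R98S libraries of number 2. They were 214.6 to 424.4 in the WT and 310.1 to 493.7 in the R98S libraries of number 3. Number 3 exceeded number 2 by 1.17 on the log2 scale (SE 0.30, adjusted p 0.00338). The R98S library of number 2 at 377.6 lay within the range of number 3, and the other R98S library of number 2 lay just below it. In total mRNA the largest Fos difference between numbers was 0.68 on the log2 scale (F test, adjusted p 0.852). Fosl1 differed in opposite directions in the fractions. Number 3 was below number 1 by a log2 difference of -1.001 in total mRNA (SE 0.31, adjusted p 0.0387) and above it by 0.58 in polysomal RNA (SE 0.25, adjusted p 0.0564). In TE the difference of number 3 from number 1 was 1.56 (SE 0.39, adjusted p 0.00294). The Fosl1 rows may hold reads of Ccdc85b, as given above. Fosb was lower in number 3 than in number 1 in total mRNA by a log2 difference of -1.06 (adjusted p 0.0800), while its F test over all 3 numbers was not called (adjusted p 0.112).

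The genotype difference was also compared between numbers. In total mRNA 0% of genes were called in this interaction (limma gave 480 genes an unadjusted p under 0.05, and edgeR called 0), and in polysomal RNA 0.028%. No member was called in either fraction. In polysomal RNA 4 members had an unadjusted p under 0.05, namely Fosl1 (0.00864), Egr2 (0.0164), Fosl2 (0.0368) and Fos (0.0383), each with an adjusted p of 0.824, where limma gave 595 of 10707 genes an unadjusted p under 0.05. Without the library of R98S clone 35 number 2 no member did (438 genes), and without WT clone 29 number 2, which leaves 1 WT library of number 2, 6 did (2112 genes). For these genes the WT libraries of number 2 were low. Egr2 had a mean of 67.6 counts there, against 174.8 in WT number 3, 303.4 in the WT library of number 1 and 262.4 to 327.9 in R98S. Fosl1 had 104.2 against 325.2 and 221.7, and 178.6 to 244.1 in R98S.

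**Figure D5:**
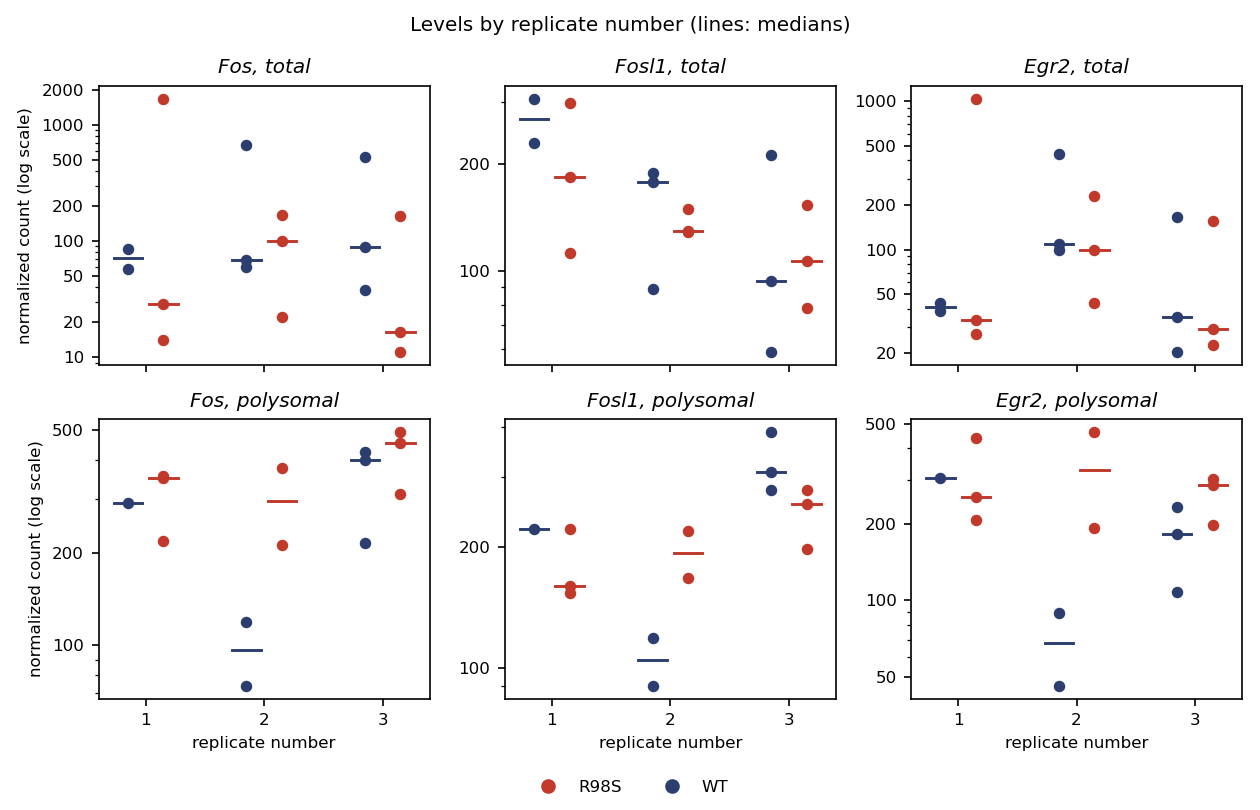
Normalized counts (log scale) of Fos, Fosl1 and Egr2 by replicate number in total mRNA (top) and polysomal RNA (bottom), with R98S in red, WT in blue and a line at each median. In polysomal RNA the WT libraries of number 2 are the lowest of each panel, at 73.9 to 119.3 counts for Fos and 45.9 to 89.3 for Egr2.

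Other genes of the same pathway were counted from lists written by hand with earlier results of these data known. The shares called are therefore descriptions and no test of a list. Of 20 tested bZIP partners of AP-1, 3 were higher and 3 lower in R98S total mRNA and 2 were lower in polysomal RNA, which is 30% and 10% of the list against 30.3% and 13.5% of all genes. With the replicate block 2 were higher and 3 lower in polysomal RNA, which is 25% against 30.9% of all genes. Atf5, a stress-responsive bZIP factor, was lower in both fractions (-1.59, adjusted p 0.00778, and -1.24, adjusted p 0.000510), as was the erythroid factor Nfe2 (-0.80, adjusted p 0.00130, and -0.56, adjusted p 0.0545). Among 3 tested Egr relatives and Nab corepressors 1, Egr3, was lower in total mRNA (-0.79, adjusted p 0.0573), which is 33.3% of the list against 30.3% of all genes. Its counts were low, at 4.13 to 18.2 (median 7.02) in R98S and 10.3 to 25.5 (median 14.8) in WT. Egr3 thus met the minimum mean of 10 through its WT counts, and the call carries little weight. In polysomal RNA it was below that minimum and not tested. Nab1 and Nab2, the 2 tested in polysomal RNA, were not called there (adjusted p 0.465 and 0.660). Of 6 serum response factor and partner genes 2 were lower in total mRNA (33.3% of the list against 30.3% of all genes), and Elk3, a ternary complex factor, was lower in both fractions (-0.69, adjusted p 0.0123, and -0.86, adjusted p 0.0551).

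In the MAP kinase chain 4 of 19 genes were higher and 3 lower in total mRNA, and 2 were higher in polysomal RNA, which is 36.8% and 10.5% of the list against 30.3% and 13.5% of all genes. The fit with the replicate block called 3 higher and 1 lower in polysomal RNA (21.1%, against 30.9% of all genes). The small GTPase Hras was higher in both fractions (0.63, adjusted p 0.0348, and 0.79, adjusted p 0.00633), as was Map2k4, a kinase upstream of the Jun kinases (0.41, adjusted p 0.00702, and 0.59, adjusted p 0.0424). The median log2 difference of this list was -0.06 in total mRNA and 0.07 in polysomal RNA, against 0.00 and -0.02 over all genes.

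Of 32 other immediate early and early response genes 1 was higher and 10 lower in total mRNA (34.4% called, against 30.3% of all genes), and 3 were higher and 5 lower in polysomal RNA (25% called, against 13.5%). The replicate block gave 5 higher and 9 lower in polysomal RNA (43.75% called, against 30.9%). The list median was -0.26 in total mRNA, against 0.0035 over all genes, and -0.09 in polysomal RNA, against -0.02. Id1, an inhibitor of bHLH factors, was lower in both fractions (-2.99, adjusted p 0.000204, and -2.44, adjusted p 0.00450). Gadd45g and the kinase Sik1 were lower in total mRNA (-1.37 and -1.30, both adjusted p 0.000442). Dusp6, a phosphatase that inactivates ERK, was lower in polysomal RNA (-0.94, adjusted p 0.00842), and Zfp36l1, which binds AU-rich elements and promotes decay, was higher there (0.97, adjusted p 0.0125).

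Among 20 genes of AU-rich element decay 3 were lower in total mRNA, namely Cnot1 (-0.49, adjusted p 0.000902), Khsrp (-0.41, adjusted p 0.00106) and Zfp36l2 (-0.58, adjusted p 0.00644), and 15% of the list was called against 30.3% of all genes. In polysomal RNA 1 was higher (5% against 13.5%), and with the replicate block 1 was higher and 5 lower (30% against 30.9%). Of 9 tested genes known as AP-1 targets 1 was higher and 6 lower in total mRNA, and 1 higher and 3 lower in polysomal RNA, which is 77.8% and 44.4% of the list against 30.3% and 13.5% of all genes. With the replicate block 1 was higher and 6 lower in polysomal RNA too (77.8%, against 30.9% of all genes). This list too was written with earlier results of these data known, so its shares lend no support to a change of AP-1 targets. S100a4, a calcium-binding protein of motile cells, had 0 to 31.1 normalized counts in R98S against 407.5 to 3686 in WT total mRNA (-7.82, adjusted p 3.66e-08). Spp1, which encodes osteopontin, had 24.8 to 761.6 against 1614 to 5162 (-4.41, adjusted p 5.12e-05). Both were also lower in polysomal RNA (-9.03, adjusted p 1.69e-05, and -5.53, adjusted p 5.19e-05). The gelatinase Mmp9 was lower in total mRNA (-1.17, adjusted p 0.00231), and the intermediate filament gene Vim was lower in polysomal RNA (-1.55, adjusted p 0.000484). The median of this list was -0.67 in total mRNA and -0.51 in polysomal RNA. The lists overlap, for example in Zfp36l1 and Zfp36l2 (early response and decay) and Maff (AP-1 partners and early response). In the genotype comparison of TE no gene of these lists was called.

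Profiles of the members were compared with those of all other genes, as root mean square (RMS) differences of log2 values scaled to SD 1. In total mRNA over 17 libraries, Ier2 was the nearest of 11133 genes to Fos (RMS difference 0.27) and to Junb (0.29). The other near genes of Fos were Ier3 (0.40) and Csrnp1 (0.42), and those of Junb were Csrnp1 (0.41) and Fos (0.44). Egr2 was nearest to Zfp36 (0.40), Fos (0.48) and Osm (0.51). In polysomal RNA over 14 libraries Junb and Ier2 were each other's nearest gene (0.45), but Fos was nearest to Zfp36 (0.36), Maff (0.41) and Btg2 (0.44), and its RMS difference from Ier2 was 1.26. Jun was nearest to Gla (0.60) in total mRNA and to Creb3 (0.31) in polysomal RNA, and Fosl1 to Map2k1 (0.36) in polysomal RNA. These are descriptions over libraries that share clones and numbers.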

How the data were processed

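Polysomal RNA and total mRNA of Ba/F3 clones were measured in 31 libraries (14 polysomal, 17 total mRNA), grouped by the labels. According to the methods and the processing notes of the submitters, libraries were made with a stranded poly(A) kit, Bowtie2 served to discard rRNA and tRNA reads, the remainder was aligned to mm10 with TopHat2 2.0.11, and reads on exons were counted (the notes name HTSeq). The authors deposited a signal per gene, which is the read count divided by a DESeq2 size factor fitted within each table. Values were whole multiples of 1 step per library, and whole reads were recovered for 100% of values within a tolerance of 0.01. Depth in recovered reads bounds the counting error only.

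Values were analysed as log2(value + 1). Genes with a mean of at least 10 were tested with limma 3.58.1 (R 4.3.3), two-sided, with Benjamini-Hochberg adjustment over all genes and calls at an adjusted p under 0.1. A fold change is thus on the log2(value + 1) scale and understates changes of low genes. TE was the log2 polysomal minus the log2 total mRNA value of a culture. Replicate numbers were tested by moderated F tests with the genotype as a term, and by its interaction with the number. The fits were tested on simulated data. Alternatives were pseudocounts, filters, TMM and quantile scaling, clone means, correlation within clones, each number alone or left out, each clone and library left out, edgeR 4.0.16 and DESeq2 1.42.0 on recovered reads, and a replicate block with or without a GC correction. An alternative without R98S clone 35 number 1 and WT clone 36 numbers 2 and 3 was added after seeing the data. Libraries of the same number deviated together, with correlations between genotypes over genes of 0.62, 0.55 and 0.48 in total mRNA and 0.70, 0.67 and 0.87 in polysomal RNA, so the numbers were taken to pair the samples. The main genotype fits held no term for the number and so did not use this pairing, whereas the fits with the replicate block did. In polysomal RNA the main fit called 1449 genes and 3 members, and the block 3307 genes and 5 members.

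The members and lists were chosen with earlier results of these data known. All 10 members were named, and from other lists at most the 3 genes of smallest adjusted p in a comparison, and the 3 nearest profiles of a member. Of 41255 symbols 36776 had a unique entry in GENCODE M21. Promoter sequences came from RefSeq.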

Additional observations from a re-analysis of the deposited data

Results flagged for a closer look

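Within groups of 4 to 10 samples, 13 of 60 member, measure and genotype groups held a sample whose gap to the nearest other sample was large against the range of the group. About 1 in 20 groups would be flagged by chance if values were normally distributed. For total mRNA and polysomal RNA the gaps were taken on normalized counts and not on the log2 scale of the fits. That rate therefore need not hold here, and a high library is flagged more readily than on the log2 scale. The groups share libraries, and the explanations were not tested. The total mRNA library of R98S clone 35 number 1 was far above the other 8 R98S libraries for Fos (1682 against a next value of 167.1), Fosb (150.2 against 46.0), Fosl1 (299.1 against 184.1), Jun (1139 against 204.2), Junb (2797 against 1554), Egr2 (1039 against 228.9) and Ier2 (6134 against 2320). Its culture was also far below the other R98S cultures in TE of Jun (-1.92 against 0.05). Among WT total mRNA libraries, clone 36 number 2 stood above the rest for Fosl2 (1164 against 560.6), Jun (147.6 against 93.6) and Egr2 (441.7 against 166.0), and clone 36 number 3 for Egr1 (16.97 against 8.23). In WT polysomal RNA clone 28 number 2 stood above the rest for Jund (1399 against 839.4).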

How the results depend on the processing

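The count of genes and of members called depended on the setting, and unless a value or the setting itself (fewer samples or genes) shows it, the cause was not tested. For the genotype in total mRNA, 1366, 241 and 1047 genes and 0 members were called within numbers 1, 2 and 3 alone, and DESeq2 called 2 members (3555 genes). Within numbers 2 and 3 alone, 2 and 3 members were called in polysomal RNA. In polysomal RNA, where 1449 genes and 3 members were called, clone means gave 751 genes and the numbers alone 438, 321 and 2234. There 1 member was called with no filter (1518 of 19945 genes), with a mean of at least 50 (1108 of 9562), with TMM scaling (1451 of 10707), by edgeR (1450) and without the libraries that stood apart (966), and 0 within number 1, where the Egr2 difference was -0.087 (adjusted p 0.938). In TE, where 4 genes were called, a pseudocount of 10 gave 2 genes, TMM 1, quantile normalization 1, clone means 0, number 1 alone 739, number 3 alone 25, the correlation within clones 80, edgeR 1 and the fit without the libraries that stood apart 0. Of members by replicate number, 2 were called in total mRNA under quantile normalization (4827 of 11133 genes), the correlation within clones (5336) and edgeR (4835), 3 in polysomal RNA under quantile normalization (6765 of 10707), and 2 in TE with no filter (7867 of 18946), quantile normalization (7365 of 10627) and edgeR (7586). For the genotype by number in polysomal RNA, 47 genes were called with no filter and 1 by edgeR.

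With the replicate block, 3307 genes and 5 members were called in polysomal RNA and 50 genes in TE, and with the block and the GC correction 3734 genes, 5 members and 135 genes. The block changed no call of a member in total mRNA or TE.

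When each number, clone or library was left out in turn, genes called by genotype ran from 1338 to 3878 in total mRNA, 608 to 2037 in polysomal RNA and 0 to 64 in TE, and by genotype and number from 0 to 5 and from 0 to 599. Genes called by number in total mRNA ran from 2693 to 5051. Members called by genotype ran from 0 to 3 in total mRNA and 1 to 3 in polysomal RNA, and by number from 0 to 2 in total mRNA, 2 to 4 in polysomal RNA and 1 to 3 in TE. Depth limits Egr1 and Fosb, with means of 5.73 and 31.6 in total mRNA, and the single WT polysomal library of number 1 limits the comparisons of polysomal RNA and TE with number 1.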
